A study of Mus musculus with 12 samples.

Results

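The members described here are the 942 array probes whose names are mouse Ensembl transcript identifiers (ENSMUST followed by a number), out of 97836 probes outside the controls on a custom Agilent array. They were chosen by name alone, and each was printed on 2 spots. The files and tables used here pair none of the 942 with a gene, a position, a transcript class or a probe sequence. Each is therefore given by its identifier, and whether each is noncoding could not be checked. They are called Ensembl transcript probes below.

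The cells were vascular smooth muscle cells (VSMCs), the contractile cells of the vessel wall, cultured from male mice. In 3 arrays the cells were Hif1a△SMC (deleted), with Hif1a disrupted in VSMCs, and had received 150 µM cobalt chloride (CoCl2) for 24 h. In 3 arrays deleted cells had received phosphate-buffered saline (PBS) in equal volume. The cells of the other 6 arrays were Hif1afl/fl (floxed), 3 with CoCl2 and 3 with PBS over the same time. All 4 groups shared the medium and the culture conditions, and only males were used. The labels do not name the promoter behind the disruption, the age of the animals or whether the 3 arrays of a group stand for separate cultures or animals. The p-values therefore reflect the spread between arrays alone, which may be technical, and 3 arrays a group limit the precision. No probe used here is named Hif1a, so the disruption itself was not checked, and of 8 smooth muscle markers looked for by name only Carmn had a named probe, so the cell type was not checked either.

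Hypoxia-inducible factor 1 is a transcription factor whose HIF-1alpha subunit, encoded by Hif1a, is hydroxylated and degraded when oxygen is plentiful. Cobalt ions interfere with that hydroxylation, so CoCl2 is used to imitate part of the response to low oxygen, although it also stabilises HIF-2alpha and stresses cells in other ways. Noncoding transcripts include long intergenic RNAs, antisense RNAs and transcripts of pseudogenes, and some of them are themselves induced or repressed under hypoxia. They are often present at lower levels than messenger RNAs, which bears on how well an array can read them.

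Fewer Ensembl transcript probes than other probes were read above background in every group, and fewest in deleted cells with CoCl2. On the 3 deleted CoCl2 arrays, 32.6%, 38.5% and 32.3% of the 942 probes were well above background, by the scanner software's own mark. The deleted PBS arrays gave 58.2%, 56.7% and 58.8%, the floxed CoCl2 arrays 51.8%, 73.7% and 65.8%, and the floxed PBS arrays 60.8%, 57.4% and 54.7%. The deleted CoCl2 arrays thus lay below all of the others, and the floxed CoCl2 arrays were the most spread. As group means, 34.5% ± 3.53 were detected in deleted cells with CoCl2, 57.9% ± 1.09 in those with PBS, 63.8% ± 11.1 in floxed cells given CoCl2 and 57.6% ± 3.08 in floxed cells given PBS (SD, n = 3 each). Over the 96894 other probes the means were 54.9%, 73.4%, 75.8% and 72.4% in the same order. When the other probes were weighted to the signal of the Ensembl transcript probes, by deciles of mean signal, their means were 37.7%, 59.5%, 63.2% and 58.3%. The gap to other probes was thus small among probes of like signal. These shares are descriptions and were not tested.

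**Figure D1:**
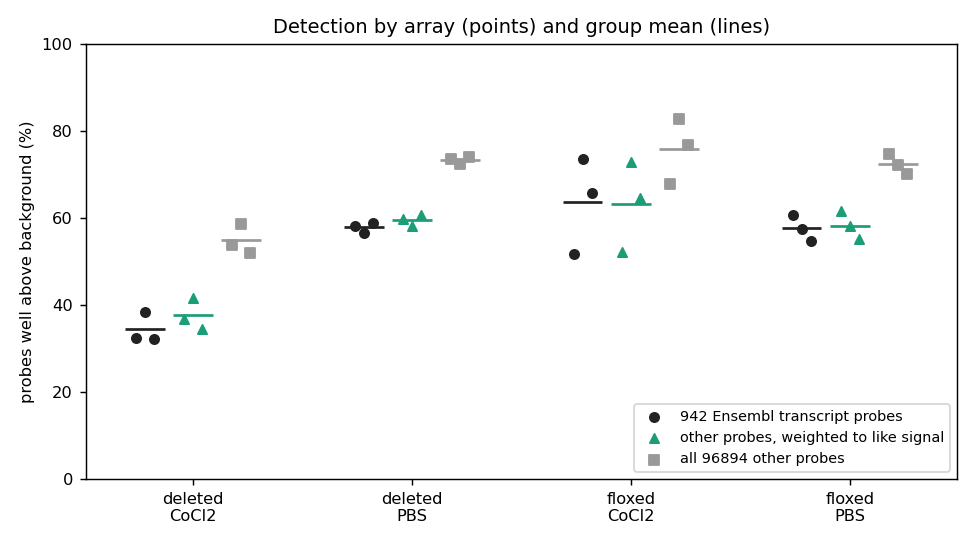
Share of probes well above background (y axis, percent) on each array (points) with the group mean (lines), for the 942 Ensembl transcript probes, for other probes weighted to like signal and for all other probes. The Ensembl transcript probes lie between 32.3% and 38.5% on the deleted CoCl2 arrays and between 51.8% and 73.7% on the other 9 arrays.

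The deleted CoCl2 arrays stood apart in further ways. The 75th percentile of log2 signal over all probes was 8.17 ± 0.10 there, 9.07 ± 0.08 in deleted PBS, 9.26 ± 0.15 in floxed CoCl2 and 9.37 ± 0.16 in floxed PBS arrays (SD, n = 3 each). The SD between the 2 spots of an Ensembl transcript probe, on the log2 scale, averaged 0.376 on the deleted CoCl2 arrays, against 0.176 on deleted PBS, 0.180 on floxed CoCl2 and 0.184 on floxed PBS arrays. All 3 deleted CoCl2 arrays lay on slide 3, beside 1 deleted PBS array. The scan of deleted CoCl2 array 2 came 4 days later than the scans of the rest. As a sign of RNA quality, the log2 signal of the 3' minus the 5' control probes for Pgk1 averaged 2.67 ± 0.19 on the deleted CoCl2 arrays, against 3.07 ± 0.04 on deleted PBS, 2.81 ± 0.17 on floxed CoCl2 and 2.82 ± 0.02 on floxed PBS arrays (SD, n = 3 each). Each deleted CoCl2 array was below each deleted PBS array in this. The same value for Gapdh did not set them apart. It averaged -2.12 ± 0.14 on the deleted CoCl2 arrays and -2.25 ± 0.10 on deleted PBS arrays, and these overlapped. The floxed CoCl2 arrays averaged -1.92 ± 0.11 and the floxed PBS arrays -2.32 ± 0.02 (SD, n = 3 each). Slide 2 held the other 2 deleted PBS arrays and 2 floxed CoCl2 arrays, and slide 1 held 1 floxed CoCl2 array and the 3 floxed PBS arrays. The part of signal, spot noise, RNA quality, scan day and slide in the results below was not tested, except as the values beside each result show.

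Of the 942 probes, 536 (56.9%) passed the filter on dim probes, which asked for all 3 arrays of at least 1 group to be well above background. Among other probes 72.6% passed. The 406 that did not pass include 230 (24.4% of the 942) that were above background on no array, against 15.1% of other probes. A further 268 (28.5%) were above background on all 12 arrays, against 48.4% of other probes. The most frequent mixed pattern was no deleted CoCl2 array and every array of the other 3 groups, found for 94 probes (9.98%), against 7.49% of other probes. In all, 560 of the 942 were above background on no deleted CoCl2 array. Of the 536 that passed, 295 (55.0%) lay in the 4 deciles of lowest signal among the probes tested and 49 (9.14%) in the 2 deciles of highest signal. Their replicate SD had a median of 0.331 on the log2 scale, against 0.283 for other probes, and replicate arrays correlated at 0.948 to 0.991 across the 536 probes (Pearson's r across probes, which are not independent).

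The first comparison asks what CoCl2 changed in cells without Hif1a. In deleted cells CoCl2 lowered 250 of the 536 Ensembl transcript probes and raised 60 (limma, Benjamini-Hochberg adjusted p below 0.05 over all 70909 probes tested). Over all probes tested, 32.7% were called lower and 20.1% higher. The calls among the Ensembl transcript probes were 46.6% lower and 11.2% higher. Other probes at like signal were called lower in 37.4% and higher in 15.9%. The median change over the 536 was -0.56 on the log2 scale, against -0.13 over all probes tested and -0.34 over other probes at like signal. Without the filter, 272 of all 942 were called lower and 232 higher, with a median change of -0.02, where 24.5% and 24.3% of all 97836 probes were called.

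**Figure D2:**
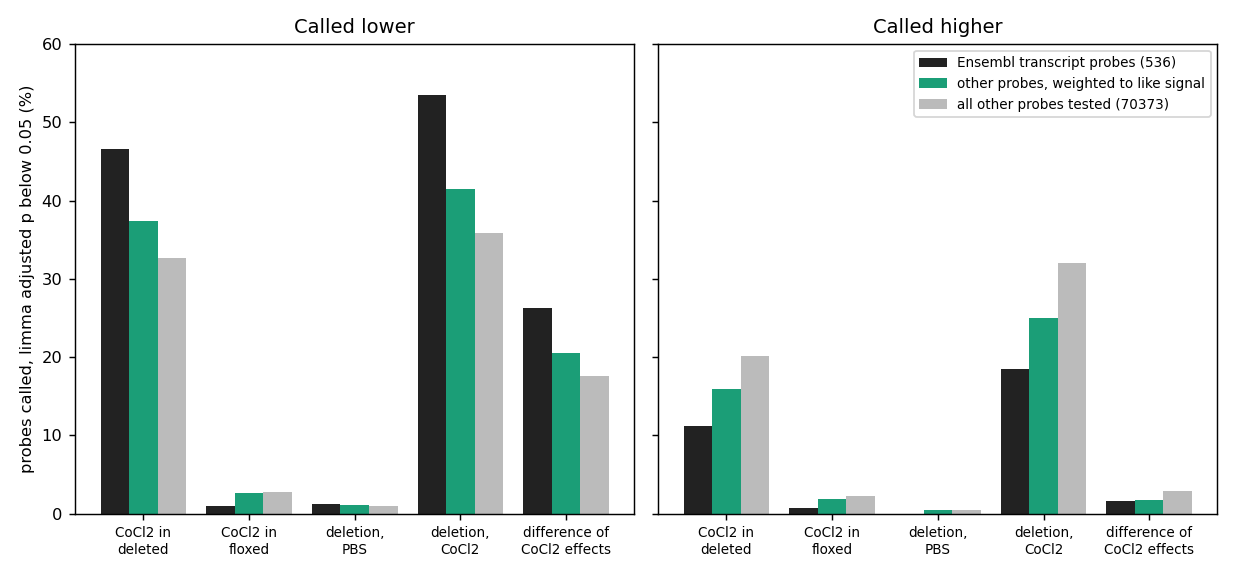
Share of tested probes called lower (left) or higher (right) in each of 5 comparisons (y axis, percent, limma adjusted p below 0.05), for the 536 Ensembl transcript probes, other probes weighted to like signal and all 70373 other probes tested. The black bars for lower calls stand above the others for CoCl2 in deleted cells (46.6%), the deletion with CoCl2 (53.5%) and the difference between the effects (26.3%).

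Much of the fall lay near background. Of the 250 lower probes, 132 were well above background on no deleted CoCl2 array, 58 on some and 60 on all 3. The 132 passed the filter only through groups other than deleted CoCl2, so the selection favoured lower values in that group. For the 132, only a bound on the fold can be given, set by the lowest signal that counted as above background on each array. It rests on the scanner's background correction and is no lower limit under other corrections. The limma p-values printed beside a bound test the change in the scaled values, without the bound. That bound exceeded 1 for 80 probes and 2 for 17, and reached 4.59. Of the 60 higher probes, 58 were above background on all 3 deleted PBS arrays. With the test run only on probes above background on all 12 arrays, 65 of 268 were called lower and 56 higher, where 19.3% and 29.5% of all 47179 such probes were called.

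The balance also differed with the signal. In the decile of lowest signal 65.4% of the Ensembl transcript probes were called lower, with a median change of -1.06 (other probes 57.9% and -1.01). In the fourth decile from the bottom the values were 58.8% and -0.78 (other probes 38.0% and -0.31). In the highest decile they were 10% and 0.29 (other probes 9.56% and 0.40). With normexp background correction in place of the scanner's, 82 were called lower and 128 higher, where 14.3% and 30.2% of all probes were. The median change was then 0.12 over the 536 and 0.17 over all probes tested.

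**Figure D3:**
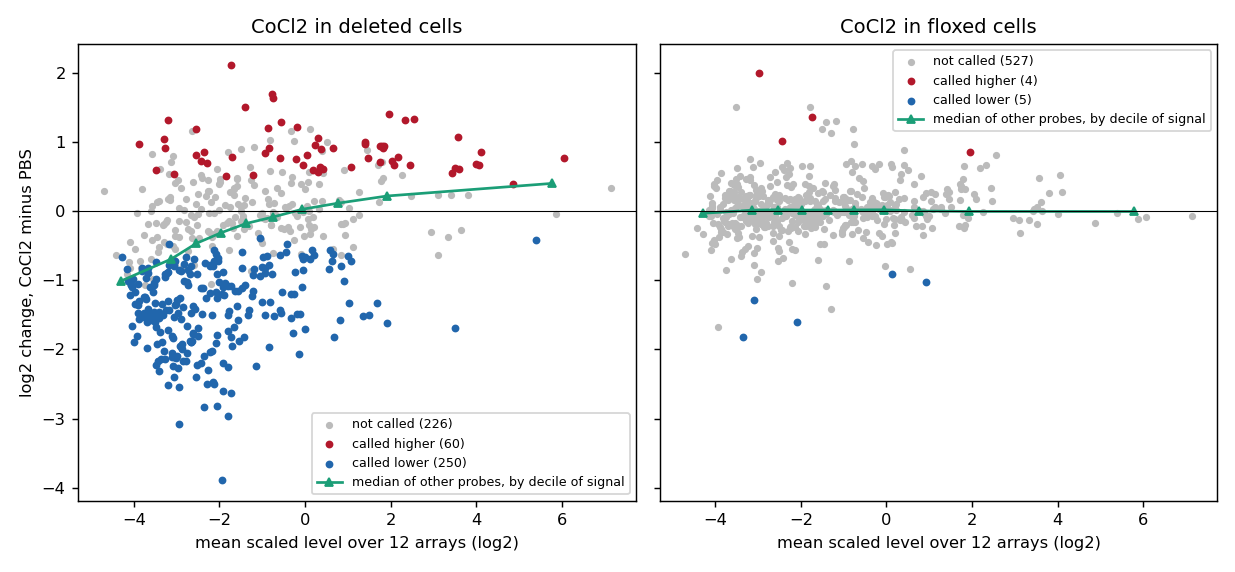
Log2 change with CoCl2 (y axis) against the mean scaled log2 level over the 12 arrays (x axis) for the 536 Ensembl transcript probes tested, in deleted cells (left) and floxed cells (right). Points are probes, red and blue those called higher and lower, and triangles are medians of other probes at the midpoint of each decile of signal. In deleted cells 60 are called higher and 250 lower, most of them at low level, and in floxed cells 4 and 5.

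The largest rise in deleted cells was that of ENSMUST00000194375, whose scaled log2 signal was 0.30, 0.12 and -0.51 on the deleted CoCl2 arrays, against -2.57, -2.22 and -1.67 on the deleted PBS arrays. Scaled values are log2 signal minus the 75th percentile of the array, so at 0 a probe was as bright as the 75th percentile of all probes on its array. The groups did not overlap, and the log2 change was 2.12 (SE 0.35, limma adjusted p = 0.000674). ENSMUST00000180613 gave 0.65, 0.60 and -0.33 with CoCl2 and -1.38, -1.27 and -1.54 with PBS, a log2 change of 1.70 (SE 0.37, limma adjusted p = 0.00301). Both were above background on all 6 of these arrays, and both kept their call in deleted cells under every alternative that tested them.

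The largest falls were to values not well above background. ENSMUST00000124214 read -5.37, -4.85 and -4.72 on the deleted CoCl2 arrays, none of them well above background, against -1.26, -1.44 and -0.57 on the deleted PBS arrays. Its bound was 4.59-fold lower with CoCl2 (group means -4.98 and -1.09, limma adjusted p = 8.16e-06), and normexp gave a log2 change of -1.13. ENSMUST00000187948 read -5.39, -5.51 and -5.07 with CoCl2, not well above background, and -2.26, -2.26 and -2.20 with PBS. Its bound was 2.07-fold lower (group means -5.32 and -2.24, limma adjusted p = 1.94e-05). The call was lost under normexp (log2 change -0.34) and under a common floor (log2 change -0.50). ENSMUST00000124214 and ENSMUST00000187948 passed the filter only through groups other than deleted CoCl2. Both kept their call without the filter (limma adjusted p = 1.99e-05 and 4.34e-05). On slide 3, which held both treatments, all 250 lower and all 60 higher probes went the same way against the single deleted PBS array there. Those arrays also made the calls, so this agreement was nearly set in advance and is no check on the slide. With slide as a fixed block 113 were called lower and 25 higher, where 11352 and 4982 of all 70909 probes were.

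**Figure D4:**
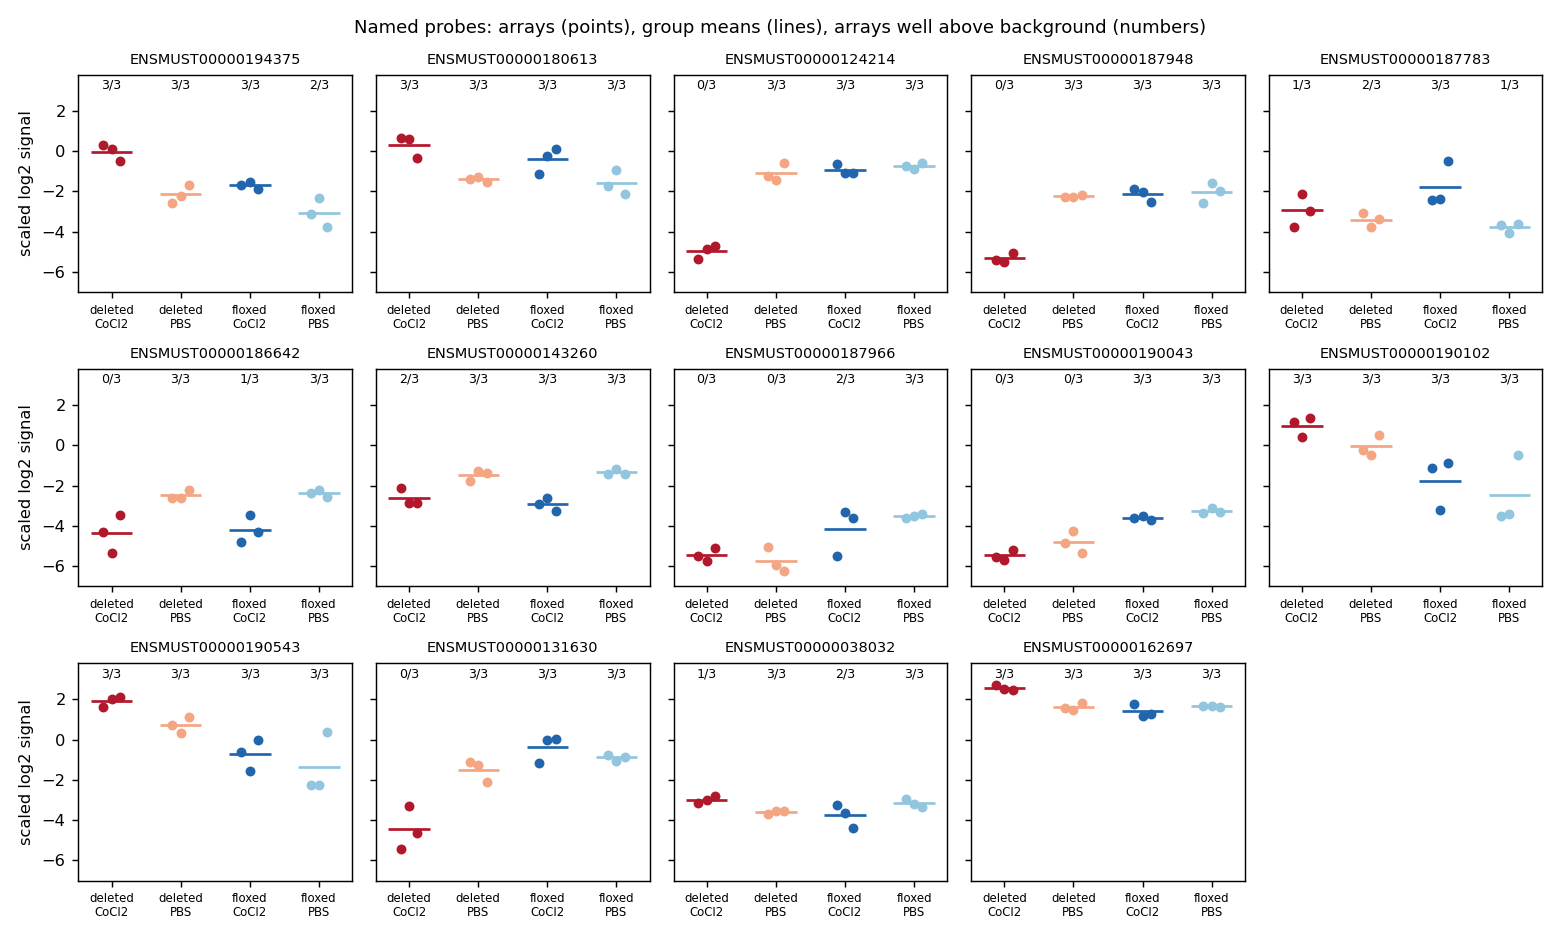
Scaled log2 signal (y axis) of the 14 Ensembl transcript probes named in the text on each array (points), with group means (lines) and, at the top, the number of the 3 arrays on which the probe was well above background. ENSMUST00000124214, ENSMUST00000187948 and ENSMUST00000131630 are above background on 0 of 3 deleted CoCl2 arrays and on all 9 others.

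In floxed cells, with Hif1a intact, CoCl2 changed few of these probes. It raised 4 and lowered 5 of the 536, where 2.21% of all probes tested were called higher and 2.73% lower. An unadjusted p below 0.05 was found for 54 of the 536, but the share of all probes with such a p was not counted, here or below. The shares called, 0.746% higher and 0.933% lower, were below those of other probes at like signal, 1.87% and 2.61%. The median change was 0.01 in both sets. Same-numbered floxed arrays deviated together, and a fit with the replicate number as a block within each genotype called 7 higher and 11 lower, where 2.31% and 3.85% of all probes were.

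ENSMUST00000187783 rose most, with -2.45, -2.38 and -0.48 on the floxed CoCl2 arrays, against -3.66, -4.04 and -3.64 on the floxed PBS arrays. The floxed CoCl2 array at -0.48 lay well above the other two. Its log2 change was 2.01 (SE 0.50, limma adjusted p = 0.0439). It passed the filter only through the floxed CoCl2 arrays, where it is high, and the call was lost without the filter (limma adjusted p = 0.066), with the replicate block over all groups (limma adjusted p = 0.0519) and in 9 of 12 fits with 1 array left out. ENSMUST00000194375, the largest rise in deleted cells, read -1.67, -1.53 and -1.89 with CoCl2 and -3.11, -2.30 and -3.78 with PBS in floxed cells, a log2 change of 1.37 (SE 0.35, limma adjusted p = 0.0498). The test of the difference between the 2 genotypes' changes did not pass for it (difference 0.75, SE 0.50, limma adjusted p = 0.296). Its call in floxed cells was lost in 9 of 12 fits with 1 array left out and in 8 of the 13 other alternatives that tested it.

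ENSMUST00000143260 fell in floxed cells, with -2.91, -2.61 and -3.27 with CoCl2 and -1.41, -1.15 and -1.43 with PBS (log2 change -1.60, SE 0.24, limma adjusted p = 0.00429). The 2 groups were above background on every array. ENSMUST00000186642 read -4.80, -3.46 and -4.32 with CoCl2, above background on 1 of the 3 arrays, against -2.34, -2.19 and -2.57 with PBS (log2 change -1.82, SE 0.42, limma adjusted p = 0.0318). Both probes also fell in deleted cells (limma adjusted p = 0.00216 and 0.00343). ENSMUST00000143260 fell there by 1.17 on the log2 scale and was above background on 2 of the 3 deleted CoCl2 arrays. ENSMUST00000186642 was well above background on none of them, and its bound was 1.76-fold lower with CoCl2 (group means -4.37 and -2.48). Leaving out 1 array gave 2 calls (floxed CoCl2 array 3 left out), 4 (floxed CoCl2 array 2), 3 (floxed PBS array 1 or 2), 5 (floxed PBS array 3, or deleted PBS array 1 or 2) or 16 (floxed CoCl2 array 1 or deleted CoCl2 array 3). Over all 70909 probes, the fit with 2 calls had 469 higher and 637 lower. The fits with 16 calls had 1625 higher and 2621 lower, and 2063 and 2299. ENSMUST00000143260 was called in each of the 12 fits with 1 array left out, and ENSMUST00000186642 lost its call in 7 of them. Among the 13 other alternatives that tested them, the calls were lost in 1 and 3.

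The CoCl2 changes of the 2 genotypes come from different arrays, but the SE of each probe was pooled over all groups. The calls are therefore not independent. Among the 536, the calls in floxed cells went from 9 to 16 without deleted CoCl2 array 3. They went to 5 without deleted PBS array 1. Of the 4 probes higher with CoCl2 in floxed cells, 2 were higher in deleted cells, which is 50% of the floxed list and 3.33% of the 60 in the deleted list. All 5 lower in floxed cells were lower in deleted cells, which is 2% of the 250. None went the opposite way. Over all probes tested, 93.2% of the 1565 higher and 65.9% of the 1935 lower in floxed cells were called the same way in deleted cells.

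The next comparison asks what the disruption of Hif1a changed at rest. Under PBS it lowered 7 of the 536 probes and raised 0 by limma, where 0.946% of all probes tested were called lower and 0.533% higher. Unadjusted, 177 of the 536 had a limma p below 0.05, but the share of all probes with such a p was not counted. The median change was -0.23, against 0.01 over all probes tested. Other probes at like signal had a median of -0.09, with 1.18% called lower. With the replicate number as a block over all groups, 5 were called higher and 4 lower, where 613 and 563 of all 70909 probes were. No slide held both PBS groups, so no value within a slide can be given.

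The largest falls under PBS were again of probes near background. ENSMUST00000187966 read -5.04, -5.93 and -6.24 on the deleted PBS arrays, none well above background, against -3.61, -3.50 and -3.43 on the floxed PBS arrays. Its bound was 1.79-fold lower in deleted cells (means -5.74 and -3.51, limma adjusted p = 0.0488), and under a common floor its change was 0. ENSMUST00000190043 read -4.83, -4.27 and -5.33 in deleted cells, not well above background, and -3.35, -3.11 and -3.33 in floxed cells. Its bound was 2.13-fold lower (means -4.81 and -3.26, limma adjusted p = 0.0346), and its change was also 0 under a common floor. On the deleted CoCl2 arrays neither was above background, with means of -5.44 and -5.47. ENSMUST00000187966 passed the filter only through the floxed PBS arrays, where it is high, and its call was lost without the filter (limma adjusted p = 0.0605), with the replicate block (limma adjusted p = 0.0554) and in 9 of 12 fits with 1 array left out. ENSMUST00000190043 passed the filter only through the floxed arrays, where it is high, and kept its call without the filter (limma adjusted p = 0.0375). Its call was lost in 6 of 12 fits with 1 array left out and in 4 of the 12 other alternatives that tested it. With 1 array left out, limma called 0 of the 536 without floxed PBS array 1 or 2, deleted PBS array 1 or 3 or floxed CoCl2 array 2 or 3 (105 to 177 with an unadjusted p below 0.05). It called 13 higher and 1 lower without floxed PBS array 3, and 1 lower without deleted PBS array 2. Over all 70909 probes these fits called 303 higher and 79 lower, and 9 and 35. In the fits that called 0, at most 13 higher and 15 lower were called over all probes. Among the 536 the counts were 2 higher and 33 lower without floxed CoCl2 array 1, where 1301 and 2252 of all probes were called. They were 27, 29 and 11 lower without deleted CoCl2 array 1, 2 or 3, with 1 higher without array 2. Over all probes these fits called 1865, 2055 and 955 lower, and 812, 1022 and 544 higher.

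Under CoCl2 the genotypes differed at most of these probes. Deleted cells were lower at 287 of the 536 and higher at 99, where 36% of all probes tested were called lower and 31.9% higher. The shares were 53.5% lower and 18.5% higher, against 41.5% and 25.0% of other probes at like signal. The median change was -0.71, against 0.06 over all probes tested and -0.31 at like signal. This comparison shares the deleted CoCl2 arrays with the first one. Of the 287, 145 were well above background on no deleted CoCl2 array, and their bound on the fold exceeded 1 for 123 probes and 2 for 46. The 145 passed the filter only through groups other than deleted CoCl2, so the selection favoured lower values in that group. On the 268 probes above background on all 12 arrays, 82 were called lower and 89 higher, where 20.8% and 46.3% of all such probes were. With normexp 153 were lower and 154 higher (21.5% and 42.9% of all probes), with a median of 0.02. Scaled to all 10 E1A spike-in controls, 226 were lower and 143 higher (27.9% and 43% of all probes), and scaled to the 6 above background on every array, 310 and 39 (40.2% and 11.3%).

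ENSMUST00000131630 read -5.42, -3.30 and -4.63 on the deleted CoCl2 arrays, none well above background, against -1.16, -0.02 and 0.04 on the floxed CoCl2 arrays. Its bound was 7.17-fold lower in deleted cells (means -4.45 and -0.38, limma adjusted p = 3.91e-05). ENSMUST00000124214, at -0.66, -1.08 and -1.07 on the floxed CoCl2 arrays, had a bound of 5.10-fold lower in deleted cells (means -4.98 and -0.94, limma adjusted p = 2.49e-06). Under normexp the log2 changes of these probes were -1.61 and -1.25. Both passed the filter only through groups other than deleted CoCl2. Neither was called for the deletion under PBS, where the changes were -0.60 (limma adjusted p = 0.425) and -0.36 (limma adjusted p = 0.351).

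The largest rises with the deletion under CoCl2 were measured well above background. ENSMUST00000190102 read 1.17, 0.40 and 1.37 on the deleted CoCl2 arrays, against -1.13, -3.21 and -0.90 on the floxed CoCl2 arrays (log2 change 2.73, SE 0.78, limma adjusted p = 0.00876). ENSMUST00000190543 read 1.63, 2.00 and 2.09 in deleted cells and -0.62, -1.55 and -0.04 in floxed cells (log2 change 2.65, SE 0.61, limma adjusted p = 0.00267). These groups share no slide, and with slide as a fixed block both calls were lost, at log2 changes of 2.15 and 2.09 (limma adjusted p = 0.304 and 0.224). Under PBS the changes of the 2 probes were 2.43 and 2.10 and were not called (limma adjusted p = 0.0875 and 0.0738). In floxed cells with PBS they read -3.52, -3.42 and -0.50, and -2.25, -2.27 and 0.38, so the floxed arrays of each treatment were split.

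That split was shared by other Ensembl transcript probes. By a rule chosen after the values were seen, a range above 1.5 on the log2 scale within both floxed groups and below 1.5 within both deleted groups, 15 of the 536 were selected (2.80%), against 485 of 70373 other probes (0.689%). These shares were not set beside other probes of like signal. In 11 of the 15 the same 3 floxed arrays were highest, floxed CoCl2 1 and 3 and floxed PBS 3. This was not counted among the 485 other probes, so whether it is particular to the Ensembl transcript probes is not known. The medians over these 11 were 1.43, 1.21 and 1.54 on the deleted CoCl2 arrays and 0.35, 0.21 and 0.56 on the deleted PBS arrays. They were -0.62, -2.20 and -0.38 on the floxed CoCl2 arrays and -2.63, -2.29 and -0.21 on the floxed PBS arrays. Floxed PBS array 3 thus lay more than 2 log2 units above the other floxed PBS arrays, on the same slide as they were. The 11 were selected on these values and were given no test, and ENSMUST00000190102 and ENSMUST00000190543 are among them.

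**Figure D5:**
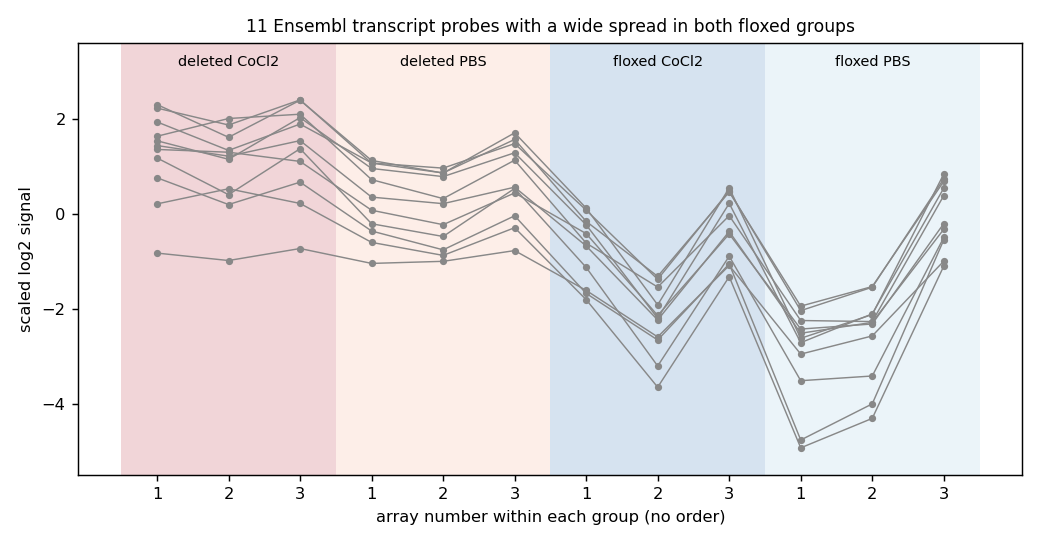
Scaled log2 signal (y axis) of 11 Ensembl transcript probes, 1 line each, on the arrays of each group (x axis). The lines dip together on floxed CoCl2 array 2 (median -2.20) and floxed PBS arrays 1 and 2 (medians -2.63 and -2.29), and lie higher on the other floxed arrays (medians -0.62, -0.38 and -0.21).

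The last comparison tested whether the CoCl2 change differed between the genotypes, as the change in deleted cells minus that in floxed cells. The difference was negative and called for 141 of the 536 probes and positive for 9, or 150 in all (20.5% of all probes tested were called in either direction), where 17.7% of all probes tested were called negative and 2.84% positive. The shares were 26.3% and 1.68%, against 20.5% and 1.76% of other probes at like signal. The median difference was -0.48, against 0.00 over all probes tested and -0.23 at like signal. With normexp the split was 21 negative and 22 positive (4.97% and 4.52% of all probes), and with slide as a fixed block 3 negative and 0 positive (0.259% and 0.0564%). Leaving out 1 array gave 74 calls (floxed CoCl2 array 2), 85 (floxed CoCl2 array 3), 79 and 75 (deleted PBS arrays 1 and 2) or 82 (floxed PBS array 2), and between 104 and 186 for each of the other 7. Over all 70909 probes, the fit with 74 calls had 7067 negative and 446 positive, and the fit with 186 had 14752 and 3955.

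ENSMUST00000124214 had the largest negative difference (-3.68, SE 0.35, limma adjusted p = 0.000517). Its size is not resolved, because none of the deleted CoCl2 arrays was well above background. In floxed cells it read -0.66, -1.08 and -1.07 with CoCl2 and -0.73, -0.89 and -0.57 with PBS, a change of -0.21 that was not called (limma adjusted p = 0.815). ENSMUST00000131630 differed by -3.47 (SE 0.69, limma adjusted p = 0.00741), with -1.09, -1.26 and -2.12 on the deleted PBS arrays and -0.77, -1.05 and -0.85 on the floxed PBS arrays. The deleted CoCl2 arrays were thus below all 9 others for both probes. The difference call of ENSMUST00000131630 held in each of the 12 fits with 1 array left out. It was lost in 2 of the 12 other alternatives that tested it, slide as a fixed block and a common floor.

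Among the positive differences, ENSMUST00000162697 was above background on all 12 arrays. It read 2.69, 2.50 and 2.46 on the deleted CoCl2 arrays and 1.55, 1.47 and 1.79 on the deleted PBS arrays. The floxed CoCl2 arrays read 1.74, 1.19 and 1.28, and the floxed PBS arrays 1.67, 1.68 and 1.60. The deleted CoCl2 arrays were above all of the others, and the difference was 1.19 (SE 0.24, limma adjusted p = 0.00805). The call held in each of the 12 fits with 1 array left out. With slide as a fixed block it was lost (difference 0.66, limma adjusted p = 0.320). ENSMUST00000038032 differed by 1.21 (SE 0.35, limma adjusted p = 0.0318), from a change of 0.62 in deleted cells and -0.59 in floxed cells, neither called alone (limma adjusted p = 0.0532 and 0.238). It was above background on 1 of 3 deleted CoCl2 arrays, 3 of 3 deleted PBS arrays, 2 of 3 floxed CoCl2 arrays and 3 of 3 floxed PBS arrays, so its values lie near the limit of detection. Its call was lost in 7 of 12 fits with 1 array left out. Among the 12 other alternatives that tested it, the call was lost in 4, and under a common floor the difference was 0.

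How far the calls depended on the settings was counted over 14 alternatives for the CoCl2 comparisons and 13 for the others. With CoCl2 in deleted cells, 43 of the 250 lower and 11 of the 60 higher probes were called under every such alternative that tested them and with each array left out, where a probe dropped by a stricter filter was not counted against. For the deletion under CoCl2 the counts were 89 of 287 and 11 of 99. For the difference of the effects they were 1 of 141 and 0 of 9, and for CoCl2 in floxed cells and the deletion under PBS no probe of the 9 and the 7 was called under all. Of the lower probes, 95 of 250 with CoCl2 in deleted cells, 68 of 287 for the deletion under CoCl2 and 39 of 141 for the difference of the effects had the opposite sign under at least 1 alternative. The counts of this paragraph were not made over all probes tested, so no share can be set beside them.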

How the data were processed

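RNA of 12 samples of mouse VSMCs was measured with 1 array each. Scanner output was deposited as linear spot intensity, written by Agilent Feature Extraction 11.5.1.1, per the file headers. Version 9.1 is given in the submitters' processing notes. The authors' deposited value table holds log2 intensity and differed from the scaled scanner values by a constant to within 0.01, for all probes on 9 arrays and all but 1 on the other 3. It served as an alternative.

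Spots with outlier marks were left out, log2 processed signal was averaged per probe, and each array's 75th percentile was subtracted. A probe was kept if 1 or more groups had it well above background on all of their 3 arrays. The 70909 kept probes entered limma 3.58.1 (R 4.3.3; functions lmFit and eBayes, 1 mean per group), with Benjamini-Hochberg adjustment over all of them. The fit alone was tested on simulated data, with random noise around the mean of each probe and some probes changed in floxed CoCl2. That simulation held no slide effect, no background limit, no dimmer group and no filter step, so it does not check those. Where no array of a group was well above background, the fold is a bound, with each dim value raised to the lowest signal that counted as above background on that array. A value already above that signal was kept, and the bound is no limit under other background corrections.

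Named probes were the 2 largest rises and 2 largest falls per comparison with adjusted p below 0.05 and groups that do not overlap (not required for the difference of effects). The members and lists were chosen with earlier results of these data known. Lists of hypoxia-linked RNAs and markers of smooth muscle, endothelial, fibroblast, macrophage and mitotic cells were not used, since no member has a gene name here and 1 marker was found. Array numbers were checked for pairing: same-numbered floxed CoCl2 and PBS arrays deviated together (correlations 0.396, 0.414 and 0.452), deleted ones did not all do so (-0.144, 0.285 and 0.235). Normexp used median signals, since the files have no mean signal column. Alternatives changed the background correction, scaling, filter, slide and replicate terms, the samples fitted and each array.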

Additional observations from a re-analysis of the deposited data

Results flagged for a closer look

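The change with CoCl2 differed between deleted and floxed cells, by limma's test of the difference itself, for 150 of the 536 Ensembl transcript probes tested (percent called over all probes 20.5%). Among the probes named, 5 differed in this way. ENSMUST00000124214 differed by -3.68 on the log2 scale (changes of -3.89 in deleted and -0.21 in floxed cells), ENSMUST00000131630 by -3.47 (-2.96 and 0.51) and ENSMUST00000187948 by -2.99 (-3.08 and -0.10, limma adjusted p = 0.00105). All 3 were well above background on no deleted CoCl2 array, so the sizes of these differences are not resolved. ENSMUST00000162697 differed by 1.19 (0.95 and -0.25) and ENSMUST00000038032 by 1.21 (0.62 and -0.59). With slide as a fixed block the difference calls of ENSMUST00000131630, ENSMUST00000162697 and ENSMUST00000038032 were lost.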

How the results depend on the processing

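Counts are given as total (higher and lower). For CoCl2 in deleted cells the main 310 (60 and 250) became 504 (232 and 272) with no filter, 121 (56 and 65) with only probes above background on all 12 arrays, 138 (25 and 113) with slide as a fixed block, 169 (55 and 114) with a common floor, 210 (128 and 82) with normexp and 317 (15 and 302) scaled to the 6 E1A controls. For CoCl2 in floxed cells the main 9 became 15 with quantile normalization, 18 with normexp, 3 (1 and 2) with all E1A controls, 5 (1 and 4) with 6 of them, 2 with slide fixed, and 18 with the replicate block within genotype. For the deletion under PBS the main 7 became 23 (4 and 19) with quantile normalization, 88 (21 and 67) with normexp, 0 with all E1A controls (128 with an unadjusted p below 0.05) and 51 with 6 of them, 11 on probes above background on all arrays, 15 with slide fixed, 0 with slide random (175 with an unadjusted p below 0.05), 80 with only the groups compared and 62 with a common floor. For the deletion under CoCl2 the main 386 became 593 with no filter, 171 on probes above background on all arrays and 169 (14 and 155) with slide fixed, and 307 (154 and 153) with normexp. For the difference of effects the main 150 became 62 (11 and 51) with quantile normalization, 43 with normexp, 270 (128 and 142) with no filter, 36 on probes above background on all arrays, 3 with slide fixed, 73 with slide random and 65 with a common floor. Fewer or more probes tested accounts for part of the filter's effect, and the cause of the others was not tested. With no filter, calls over all 97836 probes were 23793 higher and 24007 lower for CoCl2 in deleted cells. They were 30751 and 29034 for the deletion under CoCl2, and 8207 and 12660 for the difference of effects. On the 47179 probes above background on all arrays, the calls were 13939 and 9106 for CoCl2 in deleted cells. The deletion gave 1073 and 626 under PBS and 21826 and 9814 under CoCl2, and the difference of effects gave 1604 and 3549. Calls over all 70909 probes (higher and lower) moved too, given here in the same order of comparisons. In the main fit they were 14255 and 23219, 1565 and 1935, 378 and 671, 22596 and 25515, and 2011 and 12559. With slide fixed they were 4982 and 11352, 183 and 363, 195 and 1323, 5396 and 13304, and 40 and 184. With normexp they were 21424 and 10129, 2256 and 2637, 4327 and 5298, 30442 and 15251, and 3206 and 3524. With 1 array left out, the counts among the 536 ranged from 246 to 319, from 2 to 16, from 0 to 35, from 337 to 385 and from 74 to 186 in the same order of comparisons. Over all probes, the fits with 246 and 319 calls had 10324 higher and 19241 lower, and 14650 and 23740. The fit with 337 calls had 18969 and 23446. Scaling to the 6 E1A controls moved the median change of all probes with CoCl2 in deleted cells to -0.49, and scaling to all of them moved that of the deletion under CoCl2 to 0.46. Of the lower probes, 95 of 250, 68 of 287 and 39 of 141 (CoCl2 in deleted cells, deletion under CoCl2, difference of effects) took the opposite sign under at least 1 alternative, 95, 66 and 38 of them under normexp. No named probe did, but under the common floor 3 of their changes became 0. The replicate number as a block over all groups left 314, 10, 9 (5 and 4), 387 and 153 called, so the totals moved by under 1.5 times while the 7 lower calls of the deletion under PBS became 4. Over all probes that fit called 14561 and 23426, 1448 and 1990, 613 and 563, 23050 and 25667, and 1772 and 12389. The share detected, by group in the order deleted CoCl2, deleted PBS, floxed CoCl2 and floxed PBS, was 54.9%, 77.4%, 79.5% and 77.3% by the looser mark of significance over background, and 40.6%, 64.0%, 69.5% and 64.0% where 1 spot sufficed. A block within genotype could not be fitted to the deletion comparisons, and normexp on mean signals was not run. Signal that is not well above background, above all on deleted CoCl2 arrays, limits every fold there.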
